A study of Oryza sativa with 9 samples.

Results

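SPX1 to SPX6, PHR2 and PHO2 are 8 rice genes of the phosphate starvation response, and their transcript levels were followed in leaves of a histone methyltransferase mutant. They were taken from the deposited expression table by locus identifier, as 8 of 55986 identifiers. Rows were found for 7 of them. SPX6 (LOC_Os07g42330) had no row in the table used here and was not analysed.

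The leaves came from plants 40 days old, grown in a paddy field. The mutant plants carried the genotype labelled osatxr5c;osatxr6kd. They belonged to 2 lines, numbered as in the titles (mutant line 1, mutant line 2), and each line gave 3 libraries. The plants they were compared with were labelled WT, and their 3 libraries carry the title NP. The mutated genes belong to the ATXR5/6 family of plant histone methyltransferases, which place methyl groups on lysine 27 of histone H3. The labels do not spell out the suffixes c and kd, do not say how the lines were made, and do not say whether a library holds RNA of a single plant or of several. The p-values therefore measure the spread between these libraries, which may be technical. The table lists genes by locus identifier and gives no names. The targeted genes were not part of the set followed and were not analysed here. The leaf label was not checked against marker genes.

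Plants sense phosphate inside the cell through SPX domains, which bind inositol pyrophosphates. When phosphate is plentiful, SPX proteins bind PHR2, a MYB-type transcription factor that activates phosphate starvation genes, and keep it from its targets. PHO2 is a ubiquitin-conjugating enzyme that limits phosphate uptake and transfer to the shoot, and its transcript is a target of a phosphate-responsive microRNA. Transcripts of several SPX genes rise when rice is starved of phosphate, so SPX levels are widely used as readouts of that response.

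Values are TPM, the authors' measure of transcript abundance per gene length, in which every library is scaled to the same total. TPM can be compared between genes, but it keeps no sequencing depth, so the depth and the counting error are unknown. Of the 7 genes with a row, 5 reached an average of 1 TPM or more across the 9 libraries and were tested: SPX1, SPX2, SPX4, PHR2 and PHO2. Changes are differences of log2(TPM + 1) with their standard error (SE) from limma, fitted over 19345 genes, and a gene was called at a Benjamini-Hochberg adjusted p under 0.05. Both comparisons with WT used the same WT libraries.

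SPX2 was the only one of the 5 tested genes that passed the threshold in the fit as described. Its mean TPM fell by 27.2% in mutant line 2 relative to WT. In mutant line 1 the difference from WT was -10.1%, which did not pass the threshold. SPX1, SPX4, PHR2 and PHO2 passed in neither line against WT, which does not show that they were unchanged, and SPX3 and SPX5 were listed at 0 TPM in every library. The count of called genes was 0 of 5 in mutant line 1 against WT, where 25.6% of all tested genes were called. It was 1 of 5 in mutant line 2 against WT, where 21.9% were called. For the mean of both lines against WT it was 1 of 5, where 25.7% were called, and for mutant line 1 against mutant line 2 it was 1 of 5, where 22% were called. Read against those shares, the counts single out no behaviour of the 5 genes as a group. At an unadjusted p under 0.05 in limma, the counts were 0, 2, 2 and 1 in the same order. The share of all tested genes at that unadjusted threshold was not computed, so nothing is read from these counts.

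**Figure D1:**
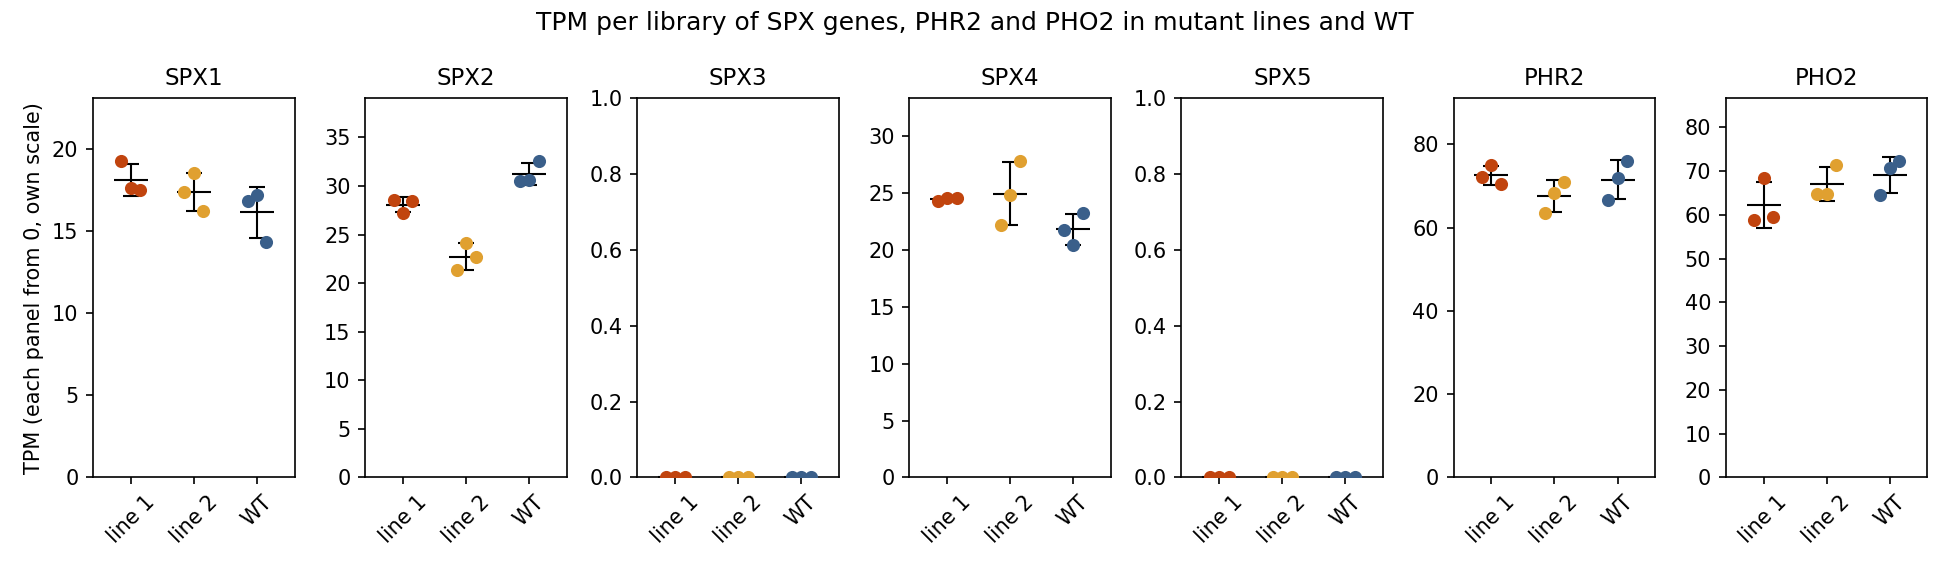
TPM of the 7 genes with a row, 1 panel per gene with its own scale from 0; points are libraries and bars are the mean ± SD (n = 3) in mutant line 1, mutant line 2 and WT. SPX2 averaged 28.1 TPM in line 1, 22.7 TPM in line 2 and 31.2 TPM in WT with no overlap between groups, while SPX3 and SPX5 were at 0. How many of all tested genes have 3 groups without overlap was not computed.

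SPX2 (LOC_Os02g10780) encodes an SPX protein that inhibits PHR2 when phosphate is sufficient. It was at 28.5, 27.2 and 28.5 TPM in mutant line 1, at 21.4, 24.2 and 22.7 TPM in mutant line 2 and at 30.5, 30.6 and 32.6 TPM in WT. The 3 groups did not overlap: all line 2 libraries lay below all line 1 libraries, and all line 1 libraries below all WT libraries. The share of all tested genes with 3 groups separated in this way was not computed. The group means were 28.1 ± 0.754 TPM in line 1, 22.7 ± 1.41 TPM in line 2 and 31.2 ± 1.15 TPM in WT (SD, n = 3 each). In line 2 against WT the change was -0.44 ± 0.07 (SE) at a limma adjusted p of 0.00027. In line 1 against WT it was -0.15 ± 0.07 (SE) at a limma adjusted p of 0.13 and a 95% interval that ran to just above zero, from -0.30 to 0.00015. A lower transcript level in whole leaves can come from fewer cells that express the gene or from less RNA per cell, and these cannot be told apart here.

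The lines also differed from each other in SPX2. The change in mutant line 1 against mutant line 2 was 0.29 ± 0.07 (SE) at a limma adjusted p of 0.0070 and a 95% interval of 0.15 to 0.44. For the mean of both lines against WT it was -0.30 ± 0.06 (SE) at a limma adjusted p of 0.0021 and all 6 mutant libraries below all 3 WT libraries. Such a separation, in either direction, was found in 19.1% of all tested genes. SPX2 varied little between libraries of a group: its residual SD on the log2 scale was 0.06, against a median of 0.12 over all tested genes, and 9.70% of them had a smaller one.

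SPX1 (LOC_Os06g40120), which like SPX2 encodes a nuclear inhibitor of PHR2, had the lowest level of the 5 tested genes. It was at 19.2, 17.6 and 17.5 TPM in mutant line 1, at 17.4, 18.5 and 16.2 TPM in mutant line 2 and at 16.8, 17.2 and 14.3 TPM in WT. All line 1 libraries lay above the WT libraries by a narrow margin, and line 2 overlapped both other groups. The change was 0.16 ± 0.09 (SE) in line 1 and 0.10 ± 0.09 (SE) in line 2, with limma adjusted p-values of 0.20 and 0.47. The 95% intervals, -0.03 to 0.35 and -0.09 to 0.29, leave room for a change of either sign.

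SPX4 (LOC_Os03g61200) encodes the SPX protein that holds PHR2 in the cytoplasm and is itself degraded when phosphate is short. It was at 24.2, 24.5 and 24.5 TPM in mutant line 1, at 22.2, 24.8 and 27.8 TPM in mutant line 2 and at 21.7, 20.4 and 23.2 TPM in WT. All line 1 libraries lay above all WT libraries, whereas line 2 was more spread and overlapped WT. The means were 24.4 ± 0.177 TPM in line 1, 24.9 ± 2.78 TPM in line 2 and 21.8 ± 1.39 TPM in WT (SD, n = 3 each). The change was 0.16 ± 0.08 (SE) in line 1 and 0.18 ± 0.08 (SE) in line 2, with limma adjusted p-values of 0.18 and 0.15. For the mean of both lines it was 0.17 ± 0.07 (SE) at a limma adjusted p of 0.10, with a 95% interval of 0.016 to 0.33 before adjustment over genes. Without replicate 1 of line 2, the lowest mutant library, that change was 0.21 and passed with a limma adjusted p of 0.047. Over 17 alternative settings it passed in that 1 alone, with limma adjusted p-values up to 0.33.

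In mutant line 1 against WT, 3 of the 5 genes had groups that did not overlap, SPX1 and SPX4 higher and SPX2 lower, where 38% of all tested genes were separated in this way. In mutant line 2 against WT, SPX2 alone of the 5 was separated, where 37.8% of all tested genes were. In line 1 against line 2 it was again SPX2 alone, where 38.9% of all tested genes were separated.

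SPX3 (LOC_Os10g25310) and SPX5 (LOC_Os03g29250) are close relatives that repress phosphate starvation signalling and whose transcripts rise under phosphate starvation in rice. Both were listed at 0 TPM in all 3 libraries of each group, so no change or fold is given. A listed 0 can be a level below the lower edge of the table, whose smallest non-zero value lay between 0.303 and 0.327 TPM per library, or a failed estimate. In all, 55.7% of the identifiers in the table were at 0 in every library.

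**Figure D2:**
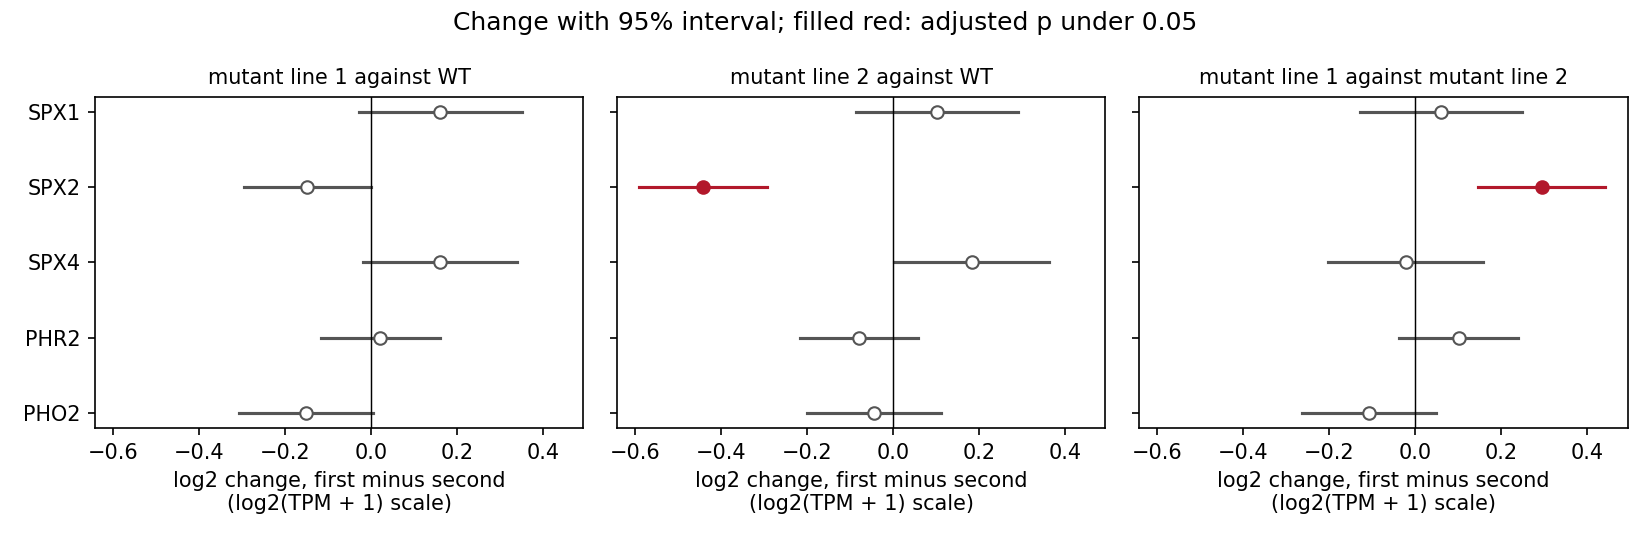
Log2 change of the 5 tested genes with its 95% interval from limma, on the log2(TPM + 1) scale, for each mutant line against WT and, on the right, for line 1 against line 2. Filled red points passed an adjusted p of 0.05: SPX2 at -0.44 in line 2 against WT and at 0.29 in line 1 against line 2.

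PHR2 (LOC_Os07g25710), the transcription factor on which the SPX proteins act, had the highest mean of the genes in each group, although PHO2 was above it in 2 of the 3 libraries of mutant line 2. It was at 72.1, 75.0 and 70.6 TPM in mutant line 1, at 63.6, 68.3 and 71.0 TPM in mutant line 2 and at 66.6, 72.0 and 76.0 TPM in WT. The 3 groups overlapped. The change was 0.02 ± 0.06 (SE) in line 1 and -0.08 ± 0.06 (SE) in line 2, with limma adjusted p-values of 0.84 and 0.44. For the mean of both lines the 95% interval was -0.15 to 0.09, so larger changes of the mean lie outside it. Between line 1 and line 2 the change was 0.10 ± 0.06 (SE) at a limma adjusted p of 0.30. After median-ratio scaling of the libraries that difference was 0.17 and passed with a limma adjusted p of 0.043. It passed in only 1 of 17 alternative settings, with limma adjusted p-values up to 0.66.

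PHO2 (LOC_Os05g48390) was at 58.9, 68.4 and 59.5 TPM in mutant line 1, at 64.8, 64.9 and 71.5 TPM in mutant line 2 and at 64.5, 70.8 and 72.3 TPM in WT. Replicates 1 and 3 of line 1 lay below all WT libraries, while replicate 2 lay among them. PHO2 differed from WT by -0.15 ± 0.07 (SE) in line 1 and by -0.04 ± 0.07 (SE) in line 2, with limma adjusted p-values of 0.14 and 0.73. The 95% intervals were -0.31 to 0.0042 and -0.20 to 0.11. Without replicate 2 of line 1, the change in that line was -0.22 and passed with a limma adjusted p of 0.033. It passed in only 1 of 17 alternative settings, with limma adjusted p-values up to 0.35. Between line 1 and line 2 the change was -0.11 ± 0.07 (SE) at a limma adjusted p of 0.33.

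PHR2 stood at the 87.1 to 89.7 percentile of the tested genes over the 9 libraries and PHO2 at the 86.1 to 89.1 percentile, while SPX1 stood at the 51.9 to 61.4 percentile. PHR2 and PHO2 did not overlap in mutant line 1, where PHR2 was 1.17 times PHO2, but their ranges overlapped in mutant line 2 and in WT. By group means PHO2 was 2.22 times the highest SPX gene in line 1 and in WT and 2.69 times in line 2, with no overlap in any group.

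The order of SPX2 and SPX4 differed between groups. Because both values come from the same library, their ratio does not depend on how libraries are scaled to each other; it was chosen after the values had been seen, so no test is given. SPX2 divided by SPX4 was 1.18, 1.11 and 1.16 in mutant line 1, 0.962, 0.975 and 0.817 in mutant line 2 and 1.40, 1.50 and 1.40 in WT. SPX4 was thus the higher of the pair in all 3 libraries of line 2, and SPX2 in all libraries of line 1 and WT. In line 2 the ranges of SPX2 and SPX4 overlapped across libraries. How often the order or ratio of other gene pairs differs between groups in this way was not computed.

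The summed TPM of SPX1, SPX2 and SPX4 was 70.6 ± 1.32 in mutant line 1, 65.0 ± 3.56 in mutant line 2 and 69.1 ± 0.924 in WT (SD, n = 3 each). The libraries of line 2, at 60.9, 67.5 and 66.6 TPM, all lay below those of WT, which spanned 68.2 to 70.1 TPM. The sum includes SPX2, which was itself called lower in line 2 against WT. Of single tested genes, 37.8% were separated in that comparison in either direction. How often sums of other genes separate was not computed, so no change of the sum is read from this. SPX2 made up 39.8% ± 0.596 of this sum in line 1, 35.0% ± 0.895 in line 2 and 45.2% ± 1.17 in WT. SPX4 made up 34.6% ± 0.881 in line 1, 38.3% ± 2.93 in line 2 and 31.5% ± 1.59 in WT. These shares depend on each other: where that of SPX2 is lower, those of SPX1 and SPX4 together are higher. The level of SPX4 itself was not called in either line against WT. Divided by PHR2 of the same library, the sum was 0.974 ± 0.0425 in line 1, 0.961 ± 0.0250 in line 2 and 0.969 ± 0.0606 in WT, with overlapping ranges.

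**Figure D3:**
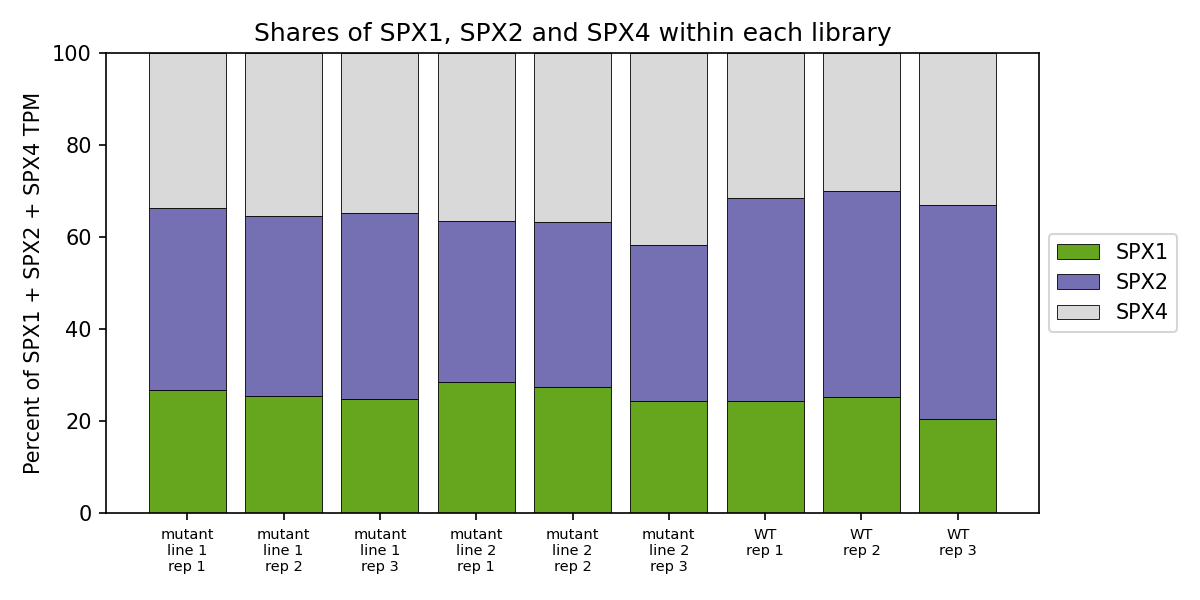
Share of SPX1, SPX2 and SPX4 in their summed TPM, 1 bar per library, for mutant line 1, mutant line 2 and WT from left to right. SPX2 took 39.2% to 40.4% in line 1, 34.0% to 35.8% in line 2 and 44.2% to 46.5% in WT.

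The genes with the patterns nearest to SPX2 and SPX4, the genes with the lowest and the highest change in the mean of both lines, were found by the root mean square difference of log2(TPM + 1), centred on the WT mean, over the 9 libraries. Among 19340 other tested genes, LOC_Os01g02000 was nearest to SPX2, at a difference of 0.044. It was at 8.84 ± 0.405 TPM in mutant line 1, 6.75 ± 0.266 TPM in mutant line 2 and 9.57 ± 0.394 TPM in WT (SD, n = 3 each). LOC_Os01g66350 followed at 0.055, with 163 ± 3.59 TPM in line 1, 135 ± 4.46 TPM in line 2 and 180 ± 8.97 TPM in WT. Nearest to SPX4 were LOC_Os02g04970 at 0.050 and LOC_Os03g57840 at 0.051. The file pairs none of these identifiers with a gene name.

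**Figure D4:**
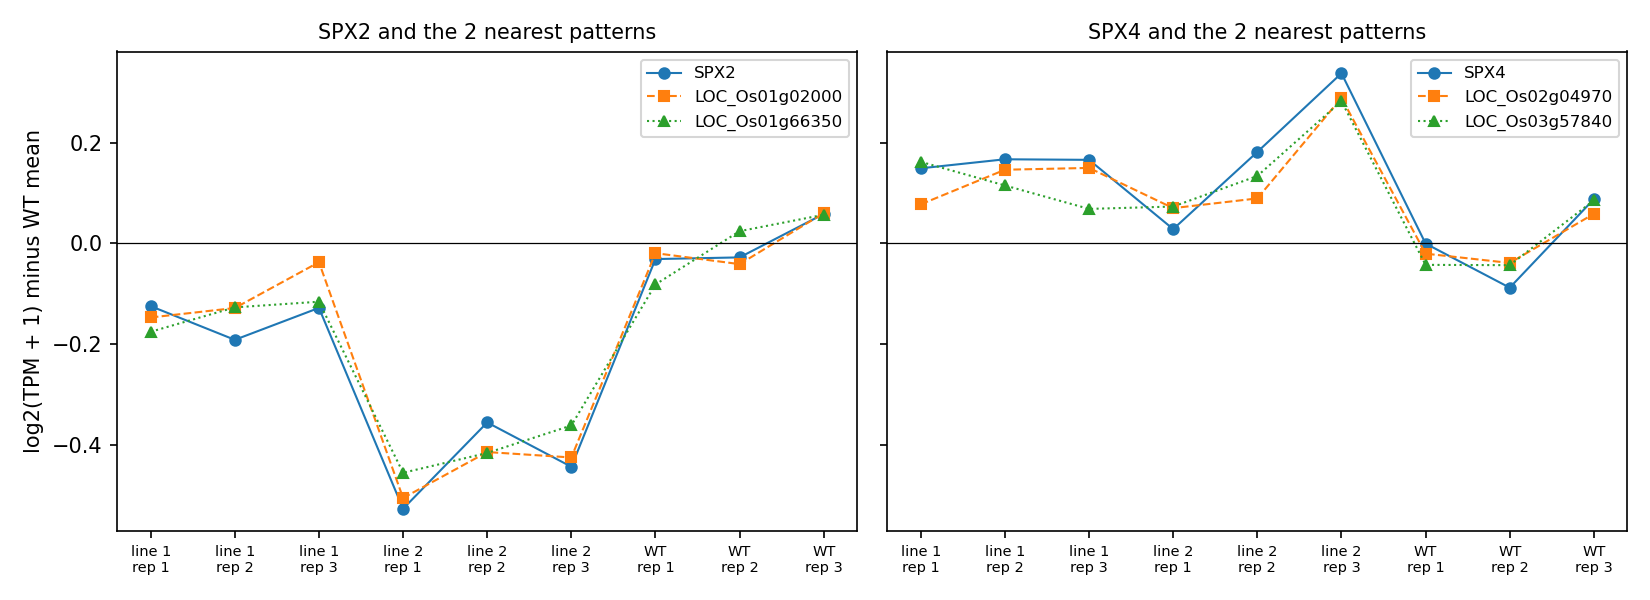
Log2(TPM + 1) minus the WT mean of each gene over the 9 libraries, for SPX2 (left) and SPX4 (right) with the 2 nearest genes of each. The 2 genes beside SPX2 lie within a root mean square difference of 0.044 and 0.055, and like SPX2 are lowest in line 2.

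A list of 28 other loci was drawn up to cover the wider phosphate pathway. It held transcription factors, some of them related to PHR2, phosphate transporters and exporters, and SPX proteins with a transporter domain. Ubiquitin and SUMO ligases, a few starvation-induced enzymes and other genes of the pathway were also on it. Neither the file nor the RefSeq table pairs these identifiers with gene names, so the assignment rests on general knowledge, and no locus is given a name or role here. Of the 28 symbols behind the list, 17 have 1 record in RefSeq, all on the chromosome that the identifier names. All 28 loci had a row, 5 were at 0 in every library and 20 averaged 1 TPM or more and were tested. In mutant line 1 against WT, 5 of the 20 were higher and 2 lower, where 9.94% of all tested genes were higher and 15.7% lower. In mutant line 2 against WT, 7 were higher and 4 lower, where 13.5% of all tested genes were higher and 8.39% lower. The line 2 counts of the list became 6 higher and 6 lower under quantile normalization. The called share was 35% in line 1 and 55% in line 2, beside the 25.6% and 21.9% of all tested genes given above. The median absolute change of the list was 0.14 in line 1 and 0.34 in line 2, beside 0.16 and 0.14 for all tested genes. The list was drawn up with earlier results of these data known. These shares and medians are therefore a description, and nothing about the pathway as a whole is read from them.

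Both lines shared 4 higher and 1 lower locus of the list at the threshold in limma's test, where 6.26% of all tested genes were higher in both and 4.67% lower in both. One of the 4 was at 208 ± 11.3 TPM in line 1, 171 ± 7.96 TPM in line 2 and 127 ± 5.76 TPM in WT (SD, n = 3 each). Another of them was at 173 ± 19.4 TPM in line 1, 194 ± 8.73 TPM in line 2 and 97.5 ± 8.74 TPM in WT. A further one was at 36.7 ± 2.34 TPM in line 1, 33.0 ± 2.10 TPM in line 2 and 20.4 ± 1.59 TPM in WT. The fourth, at 3.58 TPM in line 1 and 3.31 TPM in line 2 on average, was listed at 0 in 2 of the 3 WT libraries. With a WT mean of 0.157 TPM, it reached the minimum mean of 1 TPM only through the mutant lines. That filter favoured a higher call of this locus, so nothing is read from its call. It is also among the 5 and 7 loci counted as higher in line 1 and line 2. With a minimum mean of 5 TPM, 4 of 17 loci were higher in line 1 and 5 of 17 in line 2. The locus lower in both was at 69.6 ± 4.36 TPM in line 1, 61.4 ± 0.854 TPM in line 2 and 90.1 ± 8.97 TPM in WT. LOC_Os01g02000, the nearest pattern to SPX2, is also on the list. That locus was picked from these same data and the list was drawn up with earlier results known, so nothing is read from the overlap. In line 1 against line 2, 5 loci of the list were higher and 3 lower, where 6.8% of all tested genes were higher and 15.2% lower. Under median-ratio scaling 8 loci were higher and 2 lower, and without replicate 3 of line 1, or without replicate 1 of line 2, the lower count was 1.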

How the data were processed

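Leaf RNA of 9 libraries was sequenced. The authors deposited TPM values in 1 table, with 1 column per library. The submitters' processing notes name fastp 0.20.1, HISAT2 and DESeq2 1.26.0 without saying what each did; the program that computed TPM, the genome build, the annotation and strandedness are not given in the sources used here. Reads shared between gene copies may therefore be split in unknown ways. Groups and replicate numbers come from the titles.

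Genes averaging 1 TPM or more were tested on the log2(TPM + 1) scale with limma (version 3.58.1, R version 4.3.3); that scale understates changes of low genes. All 9 libraries entered 1 fit with a mean per group and a variance trend; p-values were two-sided and adjusted over all tested genes at a threshold of 0.05. The fit was tested on simulated libraries. The genes named are the 8 of the rule plus the nearest patterns of the genes with the highest and lowest mean change. The genes, lists and tests were chosen with earlier results of these data known. Gene symbols come from the rule; 7 of the 8 symbols have 1 record in the RefSeq table (assembly ASM3414082v1), all on the chromosome that the identifier names. Promoter and protein sequences were not analysed here. Alternatives were another pseudocount, other minimum means, 2 scalings, other fits, a replicate block and leaving out each library. Figures used matplotlib 3.10.9.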

Additional observations from a re-analysis of the deposited data

Results flagged for a closer look

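SPX2 differed between the 2 mutant lines, which carry the same genotype label, by a change of 0.29 on the log2(TPM + 1) scale in mutant line 1 against mutant line 2, with a limma adjusted p of 0.0070. All 3 libraries of line 1 lay above all 3 libraries of line 2, and this test is the direct comparison of the lines. In the same comparison 22% of all tested genes were called, and in 38.9% the 2 lines did not overlap. The level of the targeted genes in each line was not analysed here, and its part in the difference was not tested.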

How the results depend on the processing

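SPX2 kept its direction and its call against WT in line 2 and in the mean of both lines, and between the lines, under all 17 alternatives run, with changes of -0.49 to -0.40, -0.32 to -0.27 and 0.25 to 0.37. In line 1 against WT it was called under none of them, with changes of -0.16 to -0.09. Some of the 17 could not change every result. Leaving out a line 1 library leaves the SPX2 change in line 2 against WT at -0.44. For the mean of both lines, the fit of only the groups compared is the same as the fit described. Median-ratio scaling raised the genes called in line 1 against line 2 to 2, by adding PHR2. Leaving out 1 library at a time gave 0 to 1 called genes for line 1 against WT (PHO2, without replicate 2 of line 1), 1 for line 2, 1 to 2 for the mean of both lines (SPX4, without replicate 1 of line 2) and 1 for line 1 against line 2. Directions that turned were all of changes that were not called: SPX4 in line 1 against line 2, -0.022 as reported, was 0.049 under median-ratio scaling, 0.042 under quantile normalization and -0.099 to 0.056 with 1 library left out; PHR2 was -0.028 to 0.066 in line 1 against WT (-0.0018 without replicate 2 of line 1) and -0.078 to 0.015 in the mean of both lines with 1 library left out. The median change of all tested genes in line 1 against line 2 was -0.070 as deposited and -0.0038 under median-ratio scaling. The cause of the turned directions was not tested. The higher and lower counts of the phosphate list, whose alternatives were chosen after the data had been seen, moved by more than 1.5 times in line 1 against line 2 alone: 8 loci were higher after median-ratio scaling, against 5 as deposited, and 1 to 3 were lower with 1 library left out, against 3. With the replicate number as a replicate block, 0, 1, 1 and 1 of the 5 genes were called in the 4 comparisons and 5076, 4301, 5044 and 4381 of all tested genes, and it changed no call of the 5. Same-numbered libraries deviated from their group means together with r of 0.012 to 0.21 across genes, and 8 of 9 libraries were nearest to a library of their own number, so the numbers are a hint from the data and not a stated pairing. Depth is unknown, and levels below about 0.30 TPM are listed at 0.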

Other observations

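PHO2 divided by PHR2 of the same library, a ratio chosen after the values had been seen and free of scaling between libraries, was 0.816, 0.911 and 0.843 in mutant line 1, 1.02, 0.950 and 1.01 in mutant line 2 and 0.968, 0.983 and 0.951 in WT. All 3 libraries of line 1 lay below all libraries of line 2 and of WT, while line 2 and WT overlapped. How often ratios of other gene pairs separate in this way was not computed, and no test is given. Neither PHO2 nor PHR2 was called between these groups in the fit as described.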
